A study of Rattus norvegicus with 12 samples.

Results

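The genes described here encode the receptor subunits for GABA, glycine and glutamate, the fast and modulatory amino acid transmitters of the brain. They were taken as all genes of the rat array whose symbol names a subunit of a GABA-A, GABA-A rho, GABA-B, glycine, AMPA, delta, kainate, NMDA or metabotropic glutamate receptor. This gave 46 genes of the 14217 whose symbol at least 1 probe set carried alone, and 78 probe sets of the 31042 tested. The array reads a transcript with a set of short probes (a probe set), and each gene was represented by its set with the highest mean over all arrays. Of 53 rat symbols that fit the same naming pattern in RefSeq, 7 were not analysed here. The tissue was the arcuate nucleus of the hypothalamus (ARC), cut by laser from stained brain sections of 6 recuperated and 6 control male Wistar rats at 3 months of age, 1 animal per array. Recuperated rats were born to dams on a diet of 8% protein and were nursed from postnatal day 3 by control dams, in small all-male litters that allow rapid catch-up growth. Control rats were born to and nursed by control dams, in litters of equal numbers of males and females, so litter make-up differed between the groups as well as the maternal diet. Both groups ate standard chow after weaning, and the study counts litters, not animals, as n. The question was whether receptor transcripts of the adult ARC differ after growth restriction in the womb and catch-up growth.

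GABA-A receptors are chloride channels built from several subunits, usually alpha and beta subunits with a gamma or a delta subunit, and the alpha subunit sets much of where the receptor sits and how it responds to drugs. A related GABA-gated channel is formed by rho subunits, GABA-B receptors are obligate pairs that signal through G proteins, and glycine receptors are chloride channels of alpha subunits with a beta subunit. AMPA and NMDA receptors carry fast excitation, kainate receptors modulate release and excitability, delta subunits act mainly as synaptic organisers, and metabotropic receptors signal through G proteins. In the ARC, GABA from AgRP/NPY neurons inhibits POMC neurons, and glutamate drives both populations.

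Before any result, 1 array has to be set apart. All values below are log2 signal above the median of the array, so 0 is the array median, a value of 1 is 1 doubling above it and a negative value lies below it. On recuperated array 4 the mean of 9 measured genes that mark ARC neurons, such as Npy, Th and Ghrh, was 1.08, against 3.29 to 3.66 on the other 11 arrays, and 9 of 9 were at their lowest there. The mean of 5 genes of the neighbouring ventromedial nucleus was 2.71 there, against -0.49 to 0.95 elsewhere, and 5 of 5 were at their highest. The tissue on this array therefore went against its label as ARC in these markers. In its own check of the captured tissue, with data not shown, the study reports no detection of the ventromedial gene Nr5a1. It also reports high expression of Pomc, Agrp, Cartpt and Npy by RT-PCR, a measure unlike array signal. Here Nr5a1 was 2.60 on array 4 and -2.91 to -0.28 elsewhere. By group, the ARC marker mean ran from 1.08 to 3.66 in recuperated and from 3.39 to 3.60 in control ARC, and the ventromedial mean from -0.49 to 2.71 in recuperated and from -0.36 to 0.95 in control ARC. Of the ARC markers, Pomc was below the median on every array, at -0.75 to -0.06, and Agrp and Kiss1 were not analysed here. General neuronal markers had a mean of 4.78 on it and of 4.26 to 4.63 elsewhere, and lay above the median on every array for 13 of 13 genes. Within that list, 7 genes were highest on this array, among them the glutamate transporter gene Slc17a6 at 5.33 (2.78 to 4.35 elsewhere), but genes of GABA neurons were low there. Slc32a1, the vesicular GABA transporter gene, was 2.22 there and 3.78 to 4.63 elsewhere, and Gad1, a GABA synthesis gene, was 4.76 there and 5.93 to 6.38 elsewhere, whereas Gad2 lay within the range of the other arrays. By list mean, microglial markers were lower on it (0.65 against 1.23 to 1.76), as were tanycyte markers (0.02 against 0.72 to 1.55), and oligodendrocyte markers were higher (4.18 against 3.62 to 4.01). Single genes were lowest there for 5 of 7 microglial and 4 of 6 tanycyte markers, but Col25a1 of the tanycyte list was highest there. Of the oligodendrocyte markers, 3 of 6 were highest there. Some marker genes were also called between the groups. Log2 fold changes, recuperated minus control, were negative for 9 of 9 ARC and 7 of 7 microglial markers, while 43.4% of all probe sets were positive. Both counts include array 4, where 9 of 9 ARC and 5 of 7 microglial markers were at their lowest. The counts were not made without it. Group medians, which 1 low array moves little, were also lower in recuperated ARC for every microglial marker and most ARC markers. Examples are C1qb at 1.13 against 1.49 in control ARC and Tac3 at 3.32 against 3.56. The ARC markers Cartpt and Gal went the other way by median. Whether a loss was shared by the recuperated arrays was not tested. The dopamine transporter gene Slc6a3, at -0.71 (exact permutation p = 0.0606), was called by limma at 1.3-fold with P under 0.05, and 4 of 6 recuperated arrays, array 4 among them, lay below every control array. Pmch, a gene of the lateral hypothalamus, was called at 2.83-fold (exact permutation p = 0.0974), with recuperated arrays 1, 2 and 4 at 2.59, 4.80 and 3.00, above every control array. The main group comparisons are given with and without array 4, and the part of these markers in them was not tested. In tissue pieces such as these, fewer cells of a type and less RNA per cell cannot be told apart.

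Every family except the rho and delta subunits had at least 1 gene above the array median in the ARC of every animal. Of the 46 genes, 23 lay above the median on all 12 arrays, 11 on none and 12 on some. Genes of the GABA and glycine receptors and genes of the glutamate receptors divided alike, with 11 of 22 and 12 of 24 above the median on every array. Among the genes far above the median were Gabbr1 at a mean of 5.38, which was percentile 98.5 of the array, and the AMPA subunit gene Gria2 at 5.20, percentile 98.1. At the other end were Gabra6 and Gabrp, at -3.41 and -3.47, below 0 on every array. Binding strength varies between sets of probes, and so these positions do not rank the transcripts against each other, and a level below the median is not a call of absence.

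**Figure D1:**
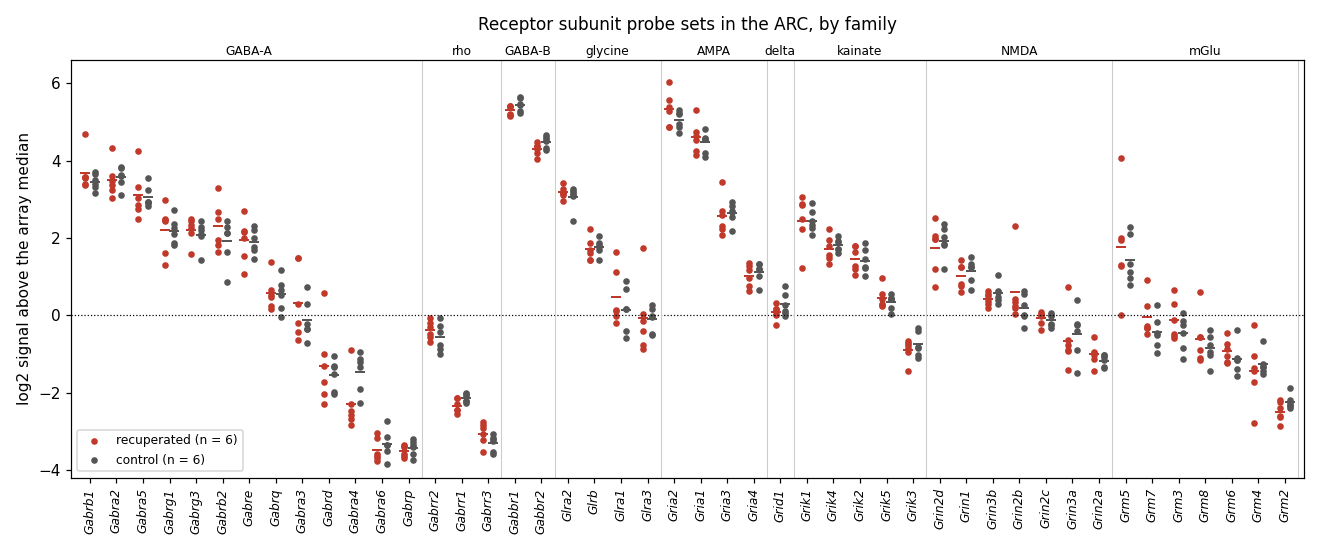
Signal relative to the array median (log2, dotted line at 0) of the 46 receptor subunit genes, grouped by family, with 1 point per array for recuperated (red, left) and control (grey, right) animals and a bar for each group mean, 6 arrays each. The GABA-B genes and Gria2 lie between 4.05 and 6.03, Gabra6, Gabrp and Gabrr3 lie below -2 on every array, and for most genes the points of both groups cover the same range.

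Only 1 of the 46 genes, the GABA-A subunit gene Gabra4, differed between recuperated and control ARC at 1.3-fold with limma P under 0.05. These cut-offs are those of the study's methods. The study, however, took forward only genes that passed them under each of its algorithms (GCOS, RMA and GC-RMA). Here they were applied to the deposited RMA values alone, so the study's full criterion was not tested. Calls thus made up 2.17% of these genes, with 0 higher and 1 lower. Over all probe sets 766 of 31042 were called, or 2.47% (1.20% higher and 1.27% lower), and over all genes with 1 probe set each 1.82%, so the share was near the background. After Benjamini-Hochberg adjustment limma called 0 of the 46 genes and 0 of all probe sets (adjusted P of at least 0.999). Before adjustment, P was under 0.05 for 1 of the 46 genes and for 3.45% of all probe sets. Log2 fold changes, recuperated minus control, ran from -0.83 to 0.44 over the 46 genes and from -0.26 upward with Gabra4 set aside. A positive log2 fold change was found for 27 genes and a negative one for 19, with a median of 0.03, whereas 43.4% of all probe sets were positive, with a median of -0.03. This balance turned when recuperated array 4 was left out, to 19 positive and 27 negative with a median of -0.05, and Gabra4 was again the only gene called (in that fit 2.80% of all probe sets were called, 1.47% higher and 1.33% lower). In no gene did the 6 recuperated arrays lie wholly apart from the 6 control arrays, which was the case for 0.139% of all probe sets. The median standard deviation within groups was 0.35 for the receptor genes and 0.32 for all probe sets.

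**Figure D2:**
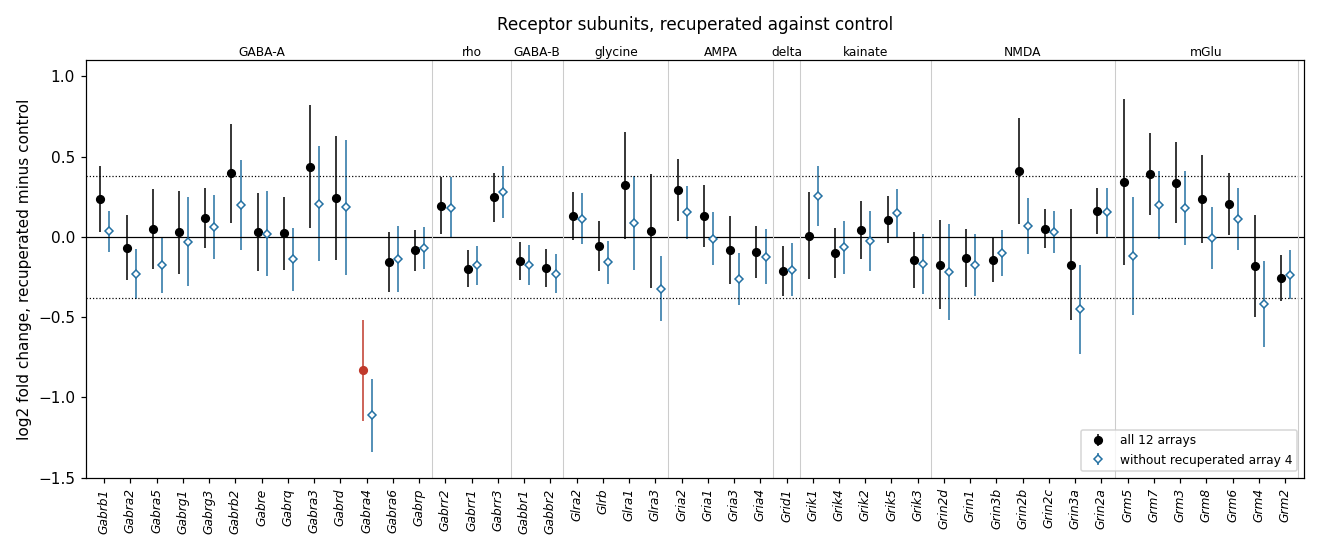
Difference between recuperated and control ARC (log2 fold change) for each of the 46 genes, with limma's standard error as bars, for all 12 arrays (filled circles) and without recuperated array 4 (open diamonds), with dotted lines at 1.3-fold in either direction. Gabra4 (red) lies at -0.83 with all arrays and at -1.11 without array 4, and all other genes lie between -0.26 and 0.44 with all arrays.

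The GABA-A family held 13 measured genes, 9 with a positive and 4 with a negative log2 fold change. Gabra4 encodes the alpha 4 subunit, which in thalamus and hippocampus joins the delta subunit in receptors outside the synapse that respond to ambient GABA. Its signal was -2.58, -2.69, -2.85, -0.89, -2.29 and -2.48 on recuperated arrays 1 to 6, and -1.22, -0.94, -1.33, -1.12, -1.92 and -2.26 on control arrays 1 to 6. Thus 5 of 6 recuperated arrays lay below every control array, and recuperated array 4 lay above every control array. The means were -2.30 ± 0.72 in recuperated and -1.47 ± 0.51 in control ARC (SD, n = 6 each). The difference was -0.83 on the log2 scale (standard error 0.32), or 0.562 times the control signal. The unadjusted limma P was 0.0194 and the adjusted P 0.999, and the exact two-sided permutation test over arrays gave p = 0.0498. Without recuperated array 4 the log2 fold change was -1.11 (standard error 0.23, adjusted P = 0.915 from limma), and the groups did not overlap (exact permutation test, p = 0.00433, the smallest that 5 against 6 arrays allow), as was so for 0.296% of all probe sets. The call was kept when each of the 12 arrays was left out in turn, with log2 fold changes from -1.11 to -0.72. Gabra4 lay below the array median on all 12 arrays, so a filter to probe sets above it on at least 6 arrays removed the gene and left 0 receptor genes called lower. It had 1 probe set, so no other probe set of the gene could be compared.

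None of the subunit genes next to Gabra4 on the chromosome was called. In rat, Gabrb1, Gabra4, Gabra2 and Gabrg1 lie in this order on chromosome 14, with no other protein-coding gene between Gabrb1 and Gabra4 or between Gabra2 and Gabrg1, and 1 between Gabra4 and Gabra2. Gabrb1, a beta subunit gene, had the highest mean of the GABA-A family's probe sets and lay at 3.36 to 4.69 (median 3.56) on recuperated arrays and at 3.17 to 3.70 (median 3.46) on control arrays. The groups overlapped apart from recuperated array 4, at 4.69, and the log2 fold change was 0.23 (standard error 0.21; limma P = 0.276, exact permutation p = 0.383). Without that array it was 0.03. Gabra2, a synaptic alpha subunit gene, averaged 3.51 ± 0.44 in recuperated and 3.57 ± 0.27 in control ARC, and Gabrg1, a gamma subunit gene, averaged 2.22 ± 0.63 in recuperated and 2.19 ± 0.34 in control ARC (SD, n = 6 each). Neither was called, with log2 fold changes of -0.07 and 0.03. Recuperated array 4 was the highest of the 12 arrays for Gabrb1, Gabra4 and Gabra2, but not for Gabrg1.

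**Figure D3:**
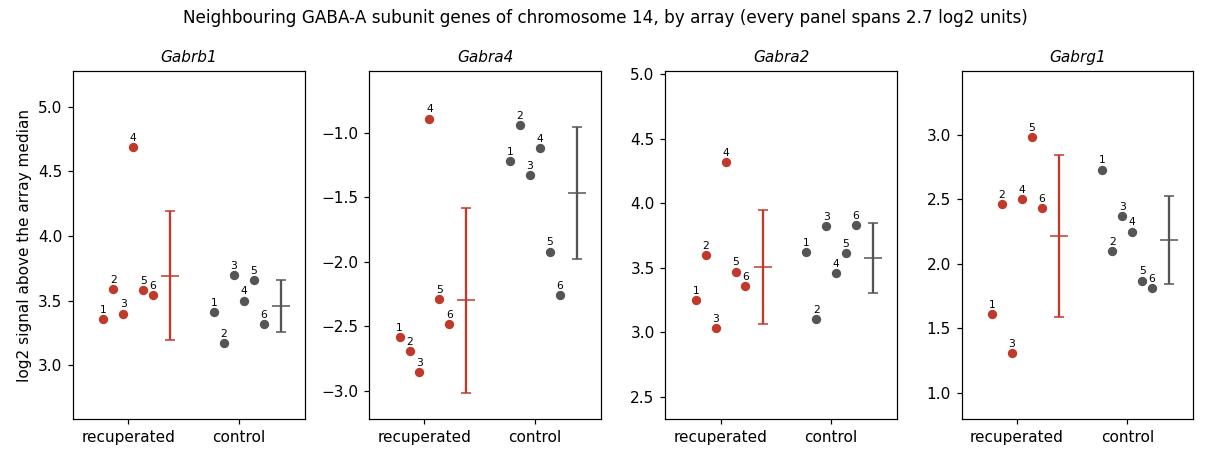
Signal relative to the array median (log2) of the 4 neighbouring subunit genes of chromosome 14, in chromosome order, with 1 point per array, numbered by animal, for recuperated (red) and control (grey) ARC and bars for the group mean and SD. For Gabra4, 5 recuperated arrays lie below -2.2 and below every control array, whereas for Gabrb1, Gabra2 and Gabrg1 the groups cover the same range apart from a few recuperated arrays.

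The sequence before the annotated start of Gabra4 is shown beside those of its neighbours because it is the called gene and the others are not. Each run is the 250 bases upstream of the start in RefSeq, on assembly GRCr8, written on the gene's own strand with matches to the motifs searched in capitals. They lie at chr14:36944497-36944746 on the plus strand for Gabra4, chr14:36902894-36903143 on the minus strand for Gabrb1 and chr14:37750042-37750291 on the plus strand for Gabrg1. Gabra2 had no entry. The start that RefSeq's table gives for Gabrb1 falls inside the annotated span of the gene, so its run may not lie before the main start.
Gabra4: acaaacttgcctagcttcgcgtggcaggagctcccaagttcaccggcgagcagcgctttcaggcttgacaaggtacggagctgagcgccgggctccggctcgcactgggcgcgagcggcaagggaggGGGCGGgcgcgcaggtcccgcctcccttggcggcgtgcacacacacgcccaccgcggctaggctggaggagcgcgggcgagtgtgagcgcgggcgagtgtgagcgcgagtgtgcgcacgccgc
Gabrb1: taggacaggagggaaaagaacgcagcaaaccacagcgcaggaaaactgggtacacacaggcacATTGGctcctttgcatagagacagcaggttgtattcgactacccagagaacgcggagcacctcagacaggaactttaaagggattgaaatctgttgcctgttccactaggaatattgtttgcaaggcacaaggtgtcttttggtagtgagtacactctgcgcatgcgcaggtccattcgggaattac
Gabrg1: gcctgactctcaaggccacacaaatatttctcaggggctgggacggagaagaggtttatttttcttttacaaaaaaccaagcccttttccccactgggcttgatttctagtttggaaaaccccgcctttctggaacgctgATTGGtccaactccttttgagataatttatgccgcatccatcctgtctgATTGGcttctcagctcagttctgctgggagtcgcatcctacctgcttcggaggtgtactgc
The Gabra4 run was 71.6% G or C and held 1 GC box that Sp1 can bind, GGGCGG, while those of Gabrb1 and Gabrg1 were 49.2% and 48.4% G or C and held 1 and 2 CCAAT boxes, read here as ATTGG from the other strand. Both strands were searched for GGGCGG, for the CCAAT box, for TATAAA (the TATA box), for GCGTGGGCG (the EGR site) and for TGACGTCA (the cyclic AMP element), and no other match was found in these 3 runs. Over 33469 such runs of all genes, 30.5% held GGGCGG and 34.0% held CCAAT, and the median was 51.2% G or C. A match is a description of letters and was not tested as a site.

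Of the other GABA-A genes, 4 lay above the median on every array. Gabra5, whose alpha subunit is known for receptors outside the synapse in hippocampus, averaged 3.12 ± 0.62 in recuperated and 3.07 ± 0.28 in control ARC. Its neighbour on chromosome 1, the gamma subunit gene Gabrg3, averaged 2.20 ± 0.33 in recuperated and 2.09 ± 0.35 in control ARC. The beta subunit gene Gabrb2 averaged 2.31 ± 0.62 in recuperated and 1.92 ± 0.58 in control ARC, a log2 fold change of 0.40 that passed 1.3-fold but not the test (exact permutation p = 0.288), and that was 0.20 without recuperated array 4. Gabre, which encodes the epsilon subunit, averaged 1.94 ± 0.57 in recuperated and 1.91 ± 0.33 in control ARC (SD, n = 6 each for all of these). Epsilon and theta subunits are concentrated in the hypothalamus and in monoamine nuclei, and the genes Gabre, Gabra3 and Gabrq for epsilon, alpha 3 and theta lie near each other on the X chromosome. Gabrq averaged 0.57 ± 0.44 in recuperated and 0.55 ± 0.43 in control ARC, above the median on 11 arrays. Gabra3 averaged 0.33 ± 0.95 in recuperated and -0.11 ± 0.52 in control ARC (SD, n = 6 each), with recuperated arrays 4 and 5 at 1.49 and 1.48 and all others at 0.72 or less. Its log2 fold change of 0.44 was the highest of the 46 genes and did not pass the test (exact permutation p = 0.348).

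Gabrd, which encodes the delta subunit that partners alpha 4 in other brain regions, lay below the median on every array but recuperated array 5, at 0.57. The other arrays lay between -2.29 and -1.01, and the log2 fold change of 0.24 was not called (exact permutation p = 0.680). Its 2 dimmer probe sets lay below the median on every array and read -2.05 and -3.66 on recuperated array 5. Their log2 fold changes were -0.02 and -0.04. Gabra6, best known from cerebellar granule cells, and Gabrp, which encodes the pi subunit found mainly outside the brain, were below -2 on every array and had log2 fold changes of -0.16 and -0.09.

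The 3 rho subunit genes, best known from the retina, lay below the median on every array. Gabrr1 lay at -2.55 to -2.14 (median -2.38) on recuperated arrays and at -2.26 to -2.01 (median -2.16) on control arrays. In 4 of 6 recuperated arrays it was below every control array, and the remaining 2 lay among them. Its log2 fold change was -0.20 (standard error 0.12), short of 1.3-fold, with limma P = 0.104 and an exact permutation p of 0.0455. With no adjustment, the exact permutation p was under 0.05 for 2 of the 46 genes, Gabra4 and Gabrr1, and the share over all probe sets was not computed. Without that share the count has no background, and it is not read as a result about these genes. A second, dimmer probe set of Gabrr1, at percentile 9.1 of the array, also read lower, at -0.29 (standard error 0.12; limma P = 0.0266, exact permutation p = 0.0108), likewise short of 1.3-fold. Gabrr2, its neighbour on chromosome 5, lay at -0.69 to -0.06 (median -0.40) on recuperated arrays and at -1.01 to -0.08 (median -0.61) on control arrays. The groups overlapped over most of their range, and the log2 fold change was 0.20 (standard error 0.18; limma P = 0.285, exact permutation p = 0.299). Gabrr3, on another chromosome, averaged -3.06 ± 0.29 in recuperated and -3.31 ± 0.21 in control ARC (SD, n = 6 each).

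Both GABA-B subunit genes were far above the median on every array. Gabbr1 encodes the subunit that binds GABA, and it lay at 5.17 to 5.42 (median 5.30) on recuperated arrays and at 5.23 to 5.65 (median 5.47) on control arrays. In 3 of 6 recuperated arrays it was below every control array, and the other 3 lay in the middle of the control range. The log2 fold change was -0.15 (standard error 0.12; limma P = 0.215, exact permutation p = 0.121). Gabbr2 encodes the partner that couples to G proteins, and it lay at 4.05 to 4.49 (median 4.34) on recuperated arrays and at 4.28 to 4.67 (median 4.53) on control arrays. Here 2 of 6 recuperated arrays were below every control array. The log2 fold change was -0.19 (standard error 0.12; limma P = 0.125, exact permutation p = 0.0606), and without recuperated array 4 it was -0.23 (limma P = 0.0775, exact permutation p = 0.0325). Neither gene was called with or without that array.

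The 5 probe sets of Gabbr1 did not give 1 value. The third in brightness was called, at 1.70 to 2.34 (median 1.94) on recuperated arrays and at 1.75 to 3.21 (median 2.60) on control arrays, and differed by -0.53 (standard error 0.22; limma P = 0.0309, exact permutation p = 0.0519). The other 4 had log2 fold changes of -0.15, -0.13, 0.04 and -0.11, so that 1 of 5 pointed the other way. This probe set was the only one called among the 32 that were not chosen to represent a gene, beside 2.47% of all probe sets, so that count was near the background. Of the 23 genes with several probe sets, 11 had probe sets of both signs.

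The glycine receptor family held 4 measured genes, and 3 had a positive log2 fold change. Glra2, the alpha subunit gene of the immature receptor in spinal cord, lay at 2.97 to 3.42 (median 3.16) on recuperated arrays and at 2.44 to 3.27 (median 3.14) on control arrays. The groups overlapped nearly wholly, with control array 2 lowest at 2.44, and the log2 fold change was 0.13 (standard error 0.15; limma P = 0.402, exact permutation p = 0.474). Its sign turned in the mean over all probe sets of the gene. Glra1, the alpha subunit gene of the adult receptor in spinal cord, lay at -0.20 to 1.64 (median 0.13) on recuperated arrays and at -0.59 to 0.88 (median 0.16) on control arrays. The medians were close, and recuperated arrays 2 and 4 were the highest, and the log2 fold change of 0.32 (standard error 0.33; limma P = 0.353, exact permutation p = 0.418) was 0.09 without array 4. Glrb, whose beta subunit anchors the receptor to gephyrin, averaged 1.71 ± 0.31 in recuperated and 1.77 ± 0.20 in control ARC. Glra3 averaged -0.07 ± 0.95 in recuperated and -0.11 ± 0.33 in control ARC (SD, n = 6 each), with recuperated array 4 at 1.73 and the other 11 arrays at -0.86 to 0.27.

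All 4 AMPA subunit genes lay above the median on every array, and none was called. Gria2, whose subunit keeps the channel closed to calcium, lay at 4.88 to 6.03 (median 5.35) on recuperated arrays and at 4.72 to 5.31 (median 5.09) on control arrays. In 3 of 6 recuperated arrays it was above every control array, and the others lay among them. Its log2 fold change was 0.29 (standard error 0.19; limma P = 0.156, exact permutation p = 0.186) and 0.15 without recuperated array 4. Gria1 averaged 4.61 ± 0.41 in recuperated and 4.48 ± 0.28 in control ARC, Gria3 averaged 2.56 ± 0.50 in recuperated and 2.64 ± 0.26 in control ARC, and Gria4 averaged 1.03 ± 0.29 in recuperated and 1.12 ± 0.25 in control ARC (SD, n = 6 each). Grid1, the measured delta subunit gene, lay at -0.25 to 0.31 (median 0.10) on recuperated arrays and at -0.02 to 0.77 (median 0.19) on control arrays. Its groups overlapped, and the log2 fold change was -0.21 (standard error 0.15; limma P = 0.190, exact permutation p = 0.199).

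Kainate receptor genes divided into 4 above the median on every array and Grik3 below it on every array. Grik1, a gene for a subunit that forms channels of its own, lay at 1.22 to 3.05 (median 2.67) on recuperated arrays and at 2.08 to 2.91 (median 2.38) on control arrays. Recuperated array 4 was the lowest of all at 1.22 and recuperated array 3 the highest. The log2 fold change was 0.01 (standard error 0.27; limma P = 0.981, exact permutation p = 0.991), and without array 4 it was 0.25. Grik3, another such gene, lay at -1.45 to -0.67 (median -0.81) on recuperated arrays and at -1.11 to -0.32 (median -0.83) on control arrays. The medians were alike and recuperated array 2 was lowest, and the log2 fold change was -0.15 (standard error 0.17; limma P = 0.419, exact permutation p = 0.446). Grik2 averaged 1.46 ± 0.33 in recuperated and 1.42 ± 0.32 in control ARC (SD, n = 6 each). The high-affinity partner genes Grik4 and Grik5 had log2 fold changes of -0.10 and 0.11, and none of the family was called.

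The NMDA family held 7 genes, 3 of them above the median on every array, and none was called. Grin1, the obligatory subunit gene, averaged 1.02 ± 0.33 in recuperated and 1.15 ± 0.31 in control ARC (SD, n = 6 each). Grin2d, a GluN2 subunit gene whose channels close slowly and are only weakly blocked by magnesium, lay at 0.74 to 2.52 (median 1.98) on recuperated arrays and at 1.20 to 2.36 (median 1.94) on control arrays. The groups overlapped, and the log2 fold change was -0.17 (standard error 0.28; limma P = 0.544, exact permutation p = 0.602). Grin2b, the GluN2 subunit gene that dominates in early life in forebrain, lay at 0.03 to 2.31 (median 0.30) on recuperated arrays and at -0.33 to 0.63 (median 0.14) on control arrays. A single array, recuperated array 4, stood above the rest, and the log2 fold change of 0.41 (standard error 0.33; limma P = 0.236, exact permutation p = 0.364) was 0.07 without it. Grin2a, which takes over from Grin2b in forebrain as animals mature, averaged -1.01 ± 0.28 in recuperated and -1.17 ± 0.15 in control ARC (SD, n = 6 each), below the median on every array. Grin2c, known mainly from cerebellum, averaged -0.08 ± 0.18 in recuperated and -0.13 ± 0.16 in control ARC. The GluN3 subunit genes, whose products bind glycine, lay on either side of the median, with Grin3b at 0.42 ± 0.16 in recuperated and 0.57 ± 0.26 in control ARC and Grin3a at -0.65 ± 0.73 in recuperated and -0.48 ± 0.65 in control ARC (SD, n = 6 each). Without recuperated array 4, the log2 fold change of Grin3a was -0.45 in place of -0.17.

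Of the 7 metabotropic glutamate receptor genes, Grm5 alone lay above the median on every array. Grm5 encodes a receptor that couples to Gq, and it lay at 0.01 to 4.08 (median 1.63) on recuperated arrays and at 0.78 to 2.28 (median 1.22) on control arrays. It had the widest spread within groups of the 46 genes, with recuperated array 4 highest and recuperated array 3 lowest. The log2 fold change was 0.34 (standard error 0.52; limma P = 0.516, exact permutation p = 0.617) and turned to -0.12 without array 4. Grm2 encodes a presynaptic receptor coupled to Gi, and it lay at -2.86 to -2.19 (median -2.51) on recuperated arrays and at -2.41 to -1.87 (median -2.30) on control arrays. The lower part of the recuperated range lay below the control arrays and the rest overlapped, and the log2 fold change was -0.26 (standard error 0.14; limma P = 0.0926, exact permutation p = 0.0909). Grm3, of the same group as Grm2 and also made by astrocytes, averaged -0.13 ± 0.51 in recuperated and -0.47 ± 0.45 in control ARC. The Gi-coupled autoreceptor genes Grm7 and Grm8 averaged -0.04 ± 0.53 and -0.62 ± 0.65 in recuperated and -0.44 ± 0.44 and -0.85 ± 0.37 in control ARC, and Grm4 averaged -1.44 ± 0.83 in recuperated and -1.25 ± 0.30 in control ARC. Grm6, known from bipolar cells of the retina, averaged -0.93 ± 0.29 in recuperated and -1.14 ± 0.41 in control ARC (SD, n = 6 each for all of these). The log2 fold change of Grm7, 0.39, passed 1.3-fold but not the test (limma P = 0.144, exact permutation p = 0.201), and it was 0.53 and called by limma without control array 3.

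Recuperated array 4, whose ARC and ventromedial markers went against its label, also stood apart in the receptor genes, and by family. It was the single highest of the 12 arrays for 21 of the 46 genes, or 45.7%, against 13.0% of all probe sets, and 18.9% of those above the median on at least 6 arrays. The single lowest value lay there for 2 genes, Grik1 and Grin3b, whereas 14.2% of all probe sets were lowest there. No other array was highest for more than 5 of the 46 genes. The pattern was not particular to receptor genes. Of the 13 neuronal markers, 7 were also highest on recuperated array 4 and 2 were lowest there. In the auxiliary lists described below, many more genes were highest there than lowest there. Nsf, Cbln1 and Camk2a were among the genes highest there, whereas only Gabarap, Cbln2, Pick1, Homer3 and Tjap1 were lowest there. By family, the highest value lay on recuperated array 4 for 8 of 13 GABA-A, 3 of 4 glycine, 3 of 4 AMPA, 2 of 7 NMDA and 5 of 7 metabotropic genes. None of the 11 GABA-B, rho, delta and kainate genes were highest there. The largest gaps to the mean of the other 11 arrays were 2.71 for Grm5, 2.10 for Grin2b and 1.98 for Glra3, which were 4.08, 2.31 and 1.73 on this array and at most 2.28, 0.63 and 0.27 elsewhere. Grik1 went the other way by -1.34, at 1.22 against 2.08 to 3.05. Glra3, Grik1 and most of the genes highest there had 1 probe set and could not be compared with another. Of the 8 genes highest there that had another probe set, 7 had another that was also highest there, and of the 22 other probe sets of the remaining genes 3 were. For Grm5 the dimmer probe set read 1.12 there and -0.94 to 0.68 elsewhere, and for Grm8 the 2 dimmer probe sets read -0.10 and 0.53 there and at most -1.34 and -0.93 elsewhere. The gene Grin2a was not highest there on its brightest probe set, but both of its dimmer ones were, at -0.28 and -0.01 against at most -0.66 and -1.17 elsewhere. Since this is 1 animal, the pattern is a description of that array, and no test was made.

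**Figure D4:**
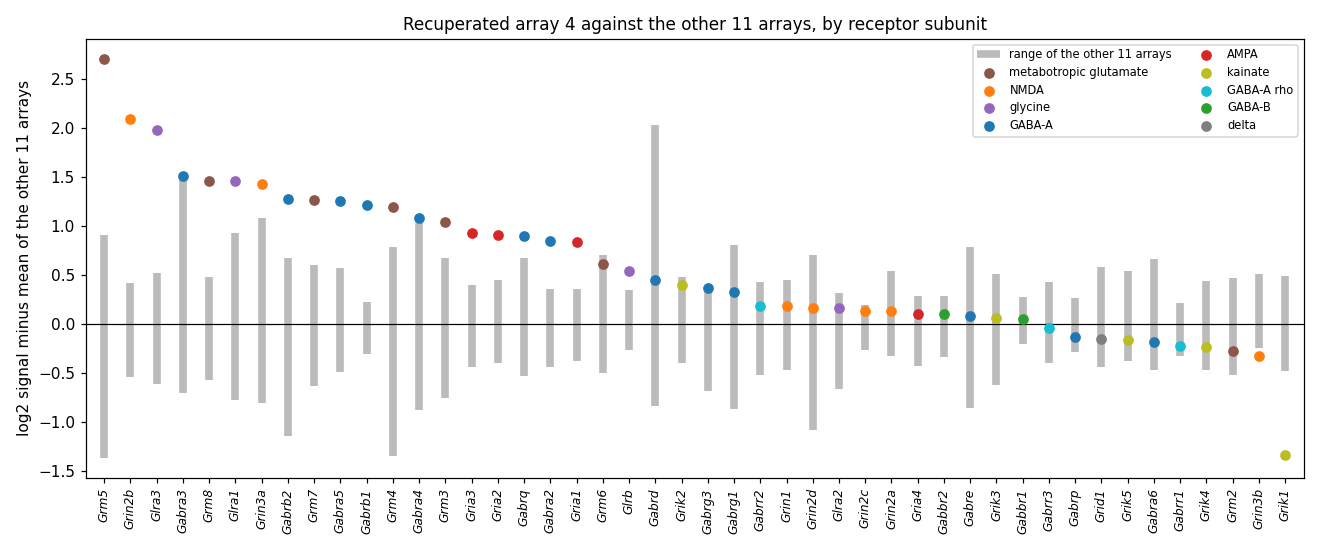
Log2 signal of recuperated array 4 minus the mean of the other 11 arrays for each of the 46 genes, coloured by family and ordered by size, with grey bars for the range of the other 11 arrays about their mean. Grm5, Grin2b and Glra3 lie 2.71, 2.10 and 1.98 above that mean and outside the bars, and Grik1 lies 1.34 below it.

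Pairs of subunits that can replace each other in a receptor were compared within each array, where a scaling of the whole array cancels. Of 6 pairs listed, 3 could be formed. The signal of Grin2a minus that of Grin2b averaged -1.61 ± 0.92 in recuperated and -1.36 ± 0.36 in control ARC, a difference of -0.25 (exact permutation p = 0.636) that turned to 0.09 without recuperated array 4, where the value was -3.28. Glra1 minus Glra2 averaged -2.71 ± 0.64 in recuperated and -2.90 ± 0.67 in control ARC, a difference of 0.19 (exact permutation p = 0.636) that turned to -0.03 without array 4. Gria1 minus Gria2 averaged -0.74 ± 0.32 in recuperated and -0.58 ± 0.19 in control ARC (SD, n = 6 each for all pairs), a difference of -0.16 (exact permutation p = 0.312) that was -0.28 without recuperated array 1 (exact permutation p = 0.0216). That last p was not adjusted over the pairs or over the arrays left out in turn. Recuperated array 1 was the highest array for this pair, at -0.14, and the value without it was picked after it was seen. Over all arrays, the adjusted p over the 3 pairs was 0.636 for each.

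A second set of genes was those whose products assemble, anchor or modulate these receptors. Of 75 listed, 61 were measured, and 2 were lower in recuperated ARC at 1.3-fold with P under 0.05, or 3.28%, beside 2.47% of all probe sets and 1.82% of all genes with 1 probe set each. None was higher, and none passed adjustment (adjusted P = 0.999 from limma for both). Neto2, which encodes an auxiliary subunit of kainate receptors, lay at 0.17 to 1.45 (median 0.65) on recuperated arrays and at 0.97 to 1.48 (median 1.08) on control arrays. It was below every control array in 5 of 6 recuperated arrays and differed by -0.48 on the log2 scale (standard error 0.19; limma P = 0.0255, exact permutation p = 0.0433). Nrxn2, a gene for a presynaptic neurexin of the family that links to delta receptors through cerebellins, lay at 0.64 to 1.37 (median 0.96) on recuperated arrays and at 1.12 to 2.02 (median 1.31) on control arrays. It was below every control array in 4 of 6 recuperated arrays and differed by -0.44 on the log2 scale (standard error 0.18; limma P = 0.0282, exact permutation p = 0.0390). Both calls were lost when all probe sets of the gene were averaged, at -0.26 for Neto2 and -0.16 for Nrxn2. Leaving out recuperated array 3 or 5 or control array 1 or 5 also ended the call of Neto2, and leaving out recuperated array 2, 3 or 6 or control array 2 or 4 ended that of Nrxn2. Both calls were kept without recuperated array 4, where Neto2 was 1.45, within the control range. Without that array the log2 fold change of Neto2 was -0.63 and its groups did not overlap, as was so for 0.296% of all probe sets. In that fit 3 auxiliary genes were called, beside 2.80% of all probe sets.

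In the other lists none of the measured genes was called. These were 17 genes of inhibitory scaffolds and assembly, 2 of GABA-B auxiliary proteins, 17 of AMPA auxiliary proteins and 19 of excitatory scaffolds. The genes with the smallest P in each were Insyn1 and Iqsec3 of the inhibitory synapse, with log2 fold changes of -0.32 and 0.21, and Kctd12 and Kctd16, auxiliary subunit genes of GABA-B receptors, with -0.25 and -0.13. In the AMPA list they were Pick1, a trafficking protein gene, at -0.29 (exact permutation p = 0.0909) and Cacng3, a gene for a transmembrane AMPA regulatory protein, at -0.51 (exact permutation p = 0.113). In the excitatory scaffold list they were Shank3 at 0.26 and Dlgap2 at 0.21 (exact permutation p = 0.117 and p = 0.147).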

How the data were processed

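The arrays measured RNA from laser-captured ARC, amplified before labelling, on an Affymetrix rat genome expression array. The authors deposited 1 table of log2 values for 31099 probe sets on 12 arrays, made with RMA (background correction, equal distributions across arrays, and 1 value from the probes of each set). Affymetrix Expression Console is named in the submitters' processing notes and another program in the study's methods, and versions are not given in the sources used here. From these log2 values, 57 control probe sets were left out and each array's median over the other 31042 was subtracted, 6.23 to 6.30 in recuperated and 6.21 to 6.27 in control arrays. Gene names came from the platform annotation (20826 probe sets had 1 symbol), and 46 of 46 receptor genes matched RefSeq by identifier.

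Groups were compared in R 4.3.3 with limma 3.58.1 (lmFit, eBayes) over all 31042 probe sets, with no covariates and Benjamini-Hochberg adjustment, and single genes with exact permutation of the arrays (two-sided, smallest p 0.00216). Python 3.11.15 with pandas 2.3.3, numpy 2.4.6, scipy 1.17.1 and matplotlib 3.10.9 was used. The fit was tested on simulated data. The genes, lists and markers were chosen with earlier results of these data known. Every receptor gene is named, and full values are given, in each family, for the gene with the highest mean and the gene with the smallest P, and for any gene at P under 0.05; lists name called genes or the 2 with the smallest P. Values of single arrays, of dimmer probe sets other than those of Gabbr1, of Grm7 without control array 3 and of Gria1 minus Gria2 without recuperated array 1 were picked for mention after they were seen. Alternatives were no median subtraction, quantile normalization, a filter to probe sets above the median on at least 6 arrays, array quality weights, the methods' t-test, a block for the animal number, the mean of a gene's probe sets and leaving out each array. Arrays give no read depth, and their number limits the precision. The p-values measure the spread between animals, whose litters are not given in the labels.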

Additional observations from a re-analysis of the deposited data

Results flagged for a closer look

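Of 102 groups of 6 arrays (46 genes, 2 auxiliary genes and 3 pair differences in each group of rats), 10 held 1 array whose gap to the nearest other exceeded 0.625 of the group's range, and chance alone gives about 1 in 20. Of these 10, 6 were recuperated array 4, always at the high end. Gabra4 was -0.89 there, against -2.85 to -2.29 on the other recuperated arrays. Gabrb1 was 4.69 (others 3.36 to 3.59), Glra3 was 1.73 (others -0.86 to 0.03) and Grin2b was 2.31 (others 0.03 to 0.42). Grin3a was 0.74 (others -1.42 to -0.64), and Grm8 was 0.60 (others -1.17 to -0.55). On the same array the ARC markers were low and the ventromedial markers high, and their part in these values was not tested. The other 4 lay on different arrays: Grik3 on recuperated array 2 at -1.45 (others -0.95 to -0.67), Gria1 minus Gria2 on recuperated array 1 at -0.14 (others -1.04 to -0.72), Glra2 on control array 2 at 2.44 (others 3.09 to 3.27), and Grm4 on control array 1 at -0.66 (others -1.51 to -1.25).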

How the results depend on the processing

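For 18 genes (16 receptor genes, Neto2 and Nrxn2), 355 alternatives were computed, of which 334 kept the direction and the side of the threshold, 12 lost a call, 0 gained one and 9 reversed. Gabra4 was called in all that tested it. The filter on dim probe sets left it out, so that 0 receptor genes were called lower, and gave 118 higher and 150 lower of all probe sets, against 371 and 395. The methods' t-test gave 243 higher and 263 lower. The share of higher calls moved with scaling, to 434 higher and 302 lower without median subtraction and 447 higher and 313 lower after quantile normalization. Auxiliary genes called numbered 4 with array weights, 0 with the mean of a gene's probe sets, and 0 to 4 with single arrays left out. The mean of its probe sets turned Glra2 to -0.015.

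With single arrays left out, 0 to 1 receptor genes were called higher (Grm7), 1 lower each time, and 19 to 30 had a positive log2 fold change. Over all probe sets, 342 to 476 were higher and 352 to 622 lower, the 622 without recuperated array 1. The log2 fold change of Grik1 lay between -0.11 and 0.25, of Grin2d between -0.33 and 0.027 (the upper end without recuperated array 6), and of Grm5 between -0.12 and 0.70. The difference for Glra1 minus Glra2 lay between -0.027 and 0.33, for Grin2a minus Grin2b between -0.45 and 0.085, and for Gria1 minus Gria2 between -0.28 and -0.10, the -0.28 without recuperated array 1 (exact permutation p = 0.0216, not adjusted over pairs or arrays left out). Causes were not tested.

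Equal animal numbers in both groups did not pair the arrays: the correlation of same-numbered deviations ran from -0.16 to 0.08, and 1 of 6 was best with its own number. With the number as a block, Gabra4 stayed at -0.83 and called, 452 probe sets were higher and 411 lower, and Neto2, at -0.48, missed the P threshold.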
